A study of Homo sapiens with 9 samples.

Results

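The genes described here are 10 transcription regulators of the trophoblast: GATA2, GATA3, TFAP2A, TFAP2B, TFAP2C, TEAD4, VGLL1, CDX2, ELF5 and HAND1. They were taken by symbol from the deposited gene table, where each of the 10 names was found among 56312 entries. Their messenger RNA was followed in human naive pluripotent stem cells on day 5 of the passage to a primed-like state, with Polycomb repressive complex 2 (PRC2) perturbed or not. All cells were wild-type HNES1, a line of naive pluripotent cells derived from a human embryo and kept on mouse feeder cells before the experiment, so every value belongs to 1 line. The group called DMSO received vehicle, PROTAC received UNC6852 at 2.5 µM, a degrader of the PRC2 subunit EED, and UNC received UNC1999 at 1 µM, an inhibitor of the PRC2 enzymes EZH1 and EZH2. The compounds were first given 24 h before the naive medium was taken away, and were renewed daily in a medium that held the tankyrase inhibitor XAV939 in every group. Each group had 3 libraries, called biological replicates in the labels and numbered 1 to 3. The compounds were used at different doses, so PROTAC and UNC are compared here as treatments, not dose for dose.

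The trophoblast is the outer lineage of the blastocyst and the source of the placenta. GATA2, GATA3, TFAP2A and TFAP2C act together in early human trophoblast, where GATA3 is among the first regulators to appear in the outer cells of the embryo. TEAD4 binds DNA for the Hippo pathway cofactors YAP1 and WWTR1, and VGLL1 is another TEAD cofactor, found in human cytotrophoblast. CDX2 and ELF5 are classical trophoblast stem cell factors in the mouse, HAND1 is a basic helix-loop-helix factor of trophoblast and extraembryonic mesoderm, and TFAP2B is an AP-2 family member better known from neural crest. Several of these genes are not exclusive to trophoblast: amnion also makes GATA2, GATA3 and TFAP2A, and TFAP2C is a regulator of naive pluripotency in human cells. PRC2 writes the repressive histone mark H3K27me3, which is found over many developmental regulators in pluripotent cells and has been described as a barrier to trophoblast fate in human naive cells.

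The stretches before the main start sites of GATA2, GATA3 and TFAP2A are shown because these 3 genes were lower under UNC1999. They are RefSeq sequences of GRCh38.p14, 5′ to 3′ in the sense of the gene, ending where an exon begins. Capitals mark matches on either strand to GCCNNNGGC, a core motif of AP-2 factors (TFAP2). The GATA motif AGATAA and the TEAD motif GGAATG were also searched on both strands, and none of the 3 stretches held either.
GATA2, chr3:128493202-128493451, minus strand: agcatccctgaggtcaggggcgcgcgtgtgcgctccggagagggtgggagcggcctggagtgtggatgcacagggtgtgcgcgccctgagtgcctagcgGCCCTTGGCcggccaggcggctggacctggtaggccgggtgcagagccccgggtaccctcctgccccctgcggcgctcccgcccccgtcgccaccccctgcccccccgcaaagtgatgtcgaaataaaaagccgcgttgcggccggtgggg
GATA3, chr10:8054438-8054652, plus strand: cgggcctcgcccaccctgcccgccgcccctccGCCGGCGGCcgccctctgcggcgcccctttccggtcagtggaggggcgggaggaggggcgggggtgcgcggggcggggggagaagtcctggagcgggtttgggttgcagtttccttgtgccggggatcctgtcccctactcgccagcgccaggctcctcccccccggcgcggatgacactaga
TFAP2A, chr6:10419660-10419909, minus strand: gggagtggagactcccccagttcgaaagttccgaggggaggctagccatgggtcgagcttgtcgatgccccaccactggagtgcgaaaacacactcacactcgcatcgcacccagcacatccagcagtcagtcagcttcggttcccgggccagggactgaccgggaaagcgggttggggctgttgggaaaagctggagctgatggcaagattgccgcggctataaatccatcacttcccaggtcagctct
Over the 250 bases before the start, GATA2 had 24 CpG dinucleotides, GATA3 26 and TFAP2A 13, beside a median of 11 over 35116 RefSeq windows of that length. The AP-2 motif was present before GATA2, GATA3 and HAND1, and in 19.8% of all windows. The AGATAA motif was found in the CDX2 window and in 9.17% of all windows, and GGAATG before VGLL1 and in 11.9% of all windows. TFAP2B, CDX2, ELF5, HAND1 and VGLL1 had 5, 10, 2, 16 and 3 CpG dinucleotides there. The nearest RefSeq windows of CDX2 and ELF5 belong to starts 1824 and 2076 bases from that of the main transcript in GENCODE 29, so they are not the stretch before the main start. GATA3 has 6 annotated starts in that table with 4 to 30 CpG dinucleotides, so the figure for a gene depends on the start chosen. Windows were found for 8 of the 10 genes, and none for TEAD4 and TFAP2C. A match describes letters only and shows no binding.

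The libraries held 31651742 to 101081643 counted reads. The first principal component of all tested genes (26.7% of variance) set the 3 libraries numbered 1 apart from the others, across the groups. Libraries with the same number also deviated together from their group means, so the values of a fit with the replicate number as a block are given wherever they change a call. Core pluripotency markers summed to between 3086 and 3720 CPM (reads scaled to a common library size with TMM factors) in every library. Of 12 trophoblast markers outside the 10 genes, 5 reached a mean of 1 CPM over the 9 libraries. HSD3B1, XAGE2 and SIGLEC6 had means under 0.1 CPM over the 9 libraries. In PROTAC alone, HSD3B1 averaged 0.109 CPM and SIGLEC6 0.108 CPM. In bulk RNA, fewer cells of a type and less RNA per cell cannot be told apart.

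The 10 genes fell into very different ranges of abundance. Per kilobase of exon (exon lengths from GENCODE 29), TEAD4 averaged 76.1 CPM per kb over the 9 libraries (68.6 to 90.2) and TFAP2C 38.4 (35.2 to 44.3), and these ranges did not overlap. Next came GATA2 at 0.855 CPM per kb (0.283 to 1.40) and GATA3 at 0.467 (0.137 to 0.854), whose ranges overlapped. HAND1 followed with 0.237 CPM per kb, TFAP2A with 0.0747, TFAP2B with 0.0605 and CDX2 with 0.0554, and the last 3 overlapped widely. VGLL1 had 0.0247 CPM per kb and was at 0 reads in 3 libraries. ELF5 had 4 reads in all, and was at 0 in 5 libraries. TEAD4 and TFAP2C were thus present at high levels in these cells. GATA2 and GATA3 were at low levels (3.81 and 1.60 CPM on average over the 9 libraries), and the remaining genes at trace levels. TEAD4 and TFAP2C also varied least, by 1.31 and 1.26 times between the lowest and the highest library, against 4.95 times for GATA2, 6.23 times for GATA3 and 5.37 times for TFAP2A.

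**Figure D1:**
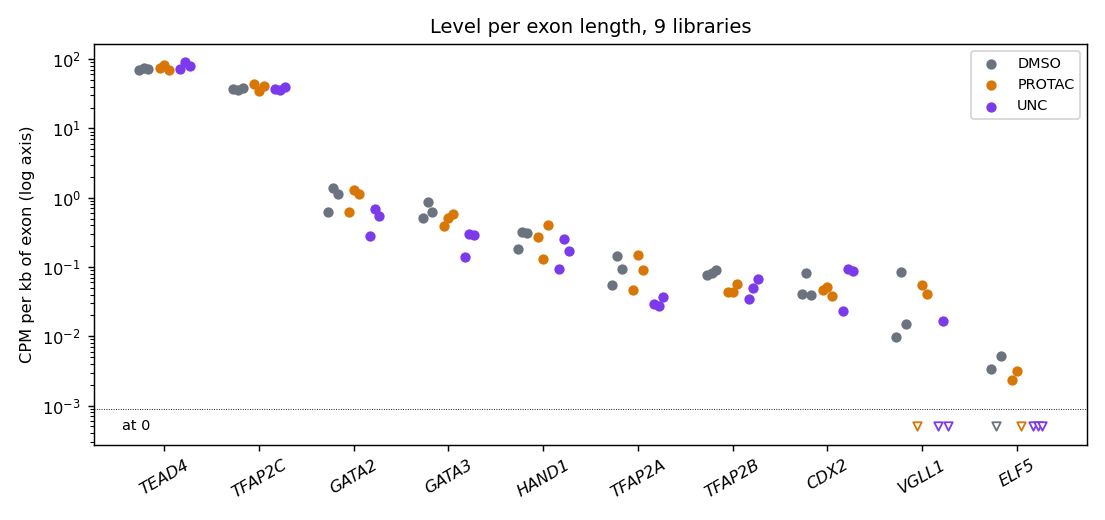
Level of each gene in each of the 9 libraries, in CPM per kilobase of exon on a log axis, with points coloured by group and open triangles for libraries with 0 reads. TEAD4 and TFAP2C lie between 35.2 and 90.2 CPM per kb, and the highest value of any other gene is 1.40.

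Under UNC1999, RNA of GATA2, GATA3 and TFAP2A was lower than with vehicle and passed the test with the replicate number as a block, while TFAP2C and TEAD4, the abundant members, did not pass it. UNC was below DMSO in 3 of 3 pairs of same-numbered libraries for these 3 genes and for TFAP2B and HAND1, which were not called. The share of all genes with that pattern was not worked out, so it is a description only. By group alone, edgeR's quasi-likelihood test called 1 of the 8 tested genes lower (GATA3) and 0 higher (0 also at an unadjusted p under 0.05, and 0 by DESeq2 and limma-voom), where 0.401% of all 24187 tested genes were called lower and 0.318% higher. With the replicate number as a block it called 3 lower (GATA2, GATA3, TFAP2A) and 0 higher (1 at an unadjusted p under 0.05, TEAD4, which DESeq2 with the block called), where 6.46% of all genes were called lower and 7.04% higher. Under UNC6852 the same test called 0 of 8 genes in either direction in both fits, where 0% of all genes were called by group alone, and 2.01% higher and 0.984% lower with the block. At an unadjusted p under 0.05, edgeR had 1 gene lower by group alone (TFAP2B), 2 lower with the block (GATA3 and TFAP2B) and 0 higher in both. DESeq2 and limma-voom, by group alone, also called 0. Set against each other, PROTAC and UNC differed in 0 of 8 genes by group alone in edgeR, DESeq2 and limma-voom (0.00827% of all genes higher in PROTAC by edgeR), with 3 genes at an unadjusted edgeR p under 0.05. With the block, 3 genes, GATA2, GATA3 and TFAP2A, were higher in PROTAC, where 2.17% of all genes were, and 0 were lower (0 also at an unadjusted p under 0.05), where 0.74% were. Both comparisons with vehicle use the same 3 DMSO libraries, so their values are given side by side and are not independent. VGLL1 and ELF5 were too sparse for the test. Counts at an unadjusted p under 0.05, here and in the lists below, have no share over all genes beside them. They are therefore not read as changes.

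**Figure D2:**
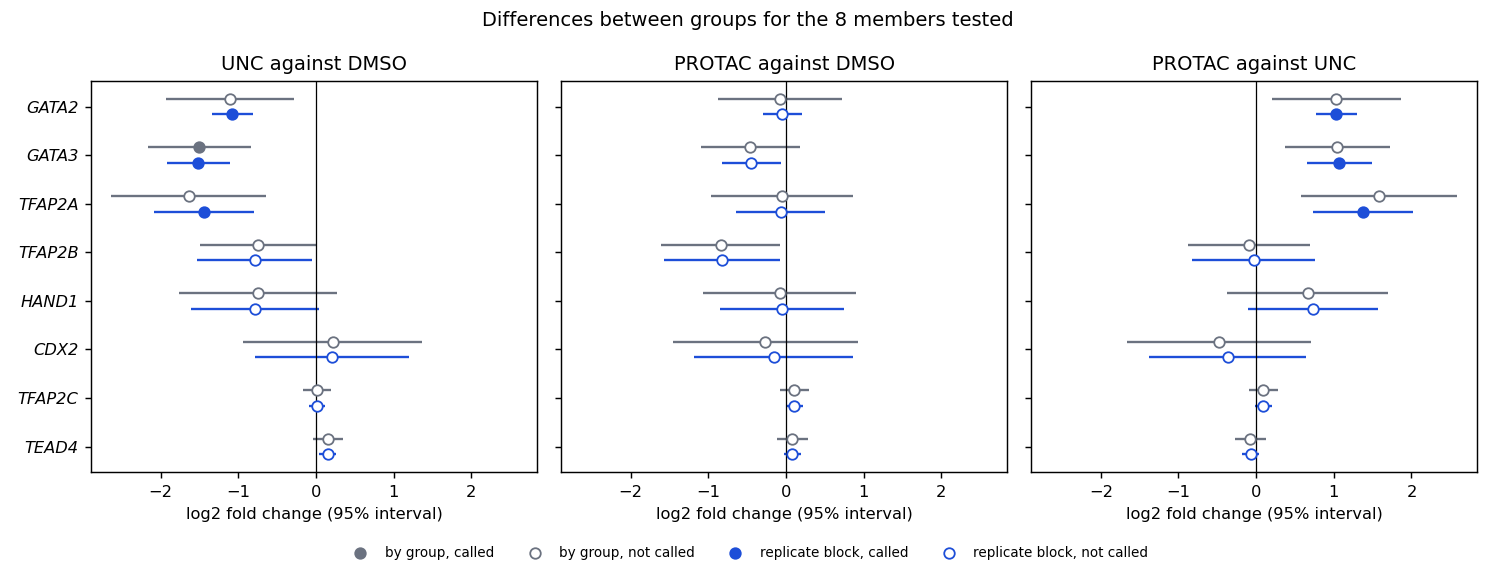
Log2 fold changes with 95% intervals for the 8 tested genes in the 3 comparisons, from the fit by group (grey) and the fit with the replicate number as a block (blue), filled where called at a false discovery rate of 0.05. GATA2, GATA3 and TFAP2A lie below 0 in UNC against DMSO and above 0 in PROTAC against UNC, and lie nearer 0 in PROTAC against DMSO.

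GATA3 (ENSG00000107485, GRCh38 chromosome 10, 8045378 to 8075198, plus strand) encodes the zinc-finger factor that marks early trophoblast. It stood at 1.76, 2.94 and 2.17 CPM in DMSO 1, 2 and 3, at 1.32, 1.74 and 2.02 CPM in PROTAC and at 0.471, 1.02 and 1.00 CPM in UNC. All 3 UNC libraries were below every DMSO and every PROTAC library, and PROTAC overlapped DMSO. UNC was 2.83-fold below DMSO by group alone (log2 fold change -1.50, SE 0.308, adjusted p = 0.0465 by edgeR) and 2.86-fold with the block (adjusted p = 8.73e-07). The 3 pairs gave -1.90, -1.53 and -1.11. The call by group alone was lost without any 1 of the 6 libraries (adjusted p = 0.0557 to 0.169 by edgeR), whereas with the block it held in each case (at most 0.000205). PROTAC against DMSO gave -0.46 by group and -0.45 with the block (95% interval -0.83 to -0.07, adjusted p = 0.209), lower in 3 of 3 pairs and not called. PROTAC was 2.10-fold above UNC with the block (adjusted p = 0.00105 by edgeR). That call was lost without the UNC 1 library (adjusted p = 0.0505 in the same blocked fit, log2 fold change 0.87).

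GATA2 (ENSG00000179348, chromosome 3, 128479427 to 128493201, minus strand) is the close relative that also controls blood stem cells. Its levels were 2.73, 6.24 and 5.11 CPM in DMSO 1, 2 and 3, 2.77, 5.68 and 5.05 CPM in PROTAC, and 1.26, 3.06 and 2.40 CPM in UNC. In each group library 1 was the lowest and library 2 the highest, and UNC 2 lay above DMSO 1, so the groups overlapped. Within pairs the difference between UNC and DMSO was close to constant, at -1.11, -1.03 and -1.09 on the log2 scale. It passed the test with the block (2.12-fold lower, log2 fold change -1.08, SE 0.131, edgeR adjusted p = 1.70e-07) and not by group alone (-1.10, SE 0.377, adjusted p = 0.236). PROTAC against DMSO gave pairs of 0.02, -0.14 and -0.02 and a blocked value of -0.05 with a 95% interval from -0.30 to 0.20. That interval does not reach the change seen with UNC1999. PROTAC was 2.04-fold above UNC with the block (adjusted p = 1.22e-06 by edgeR), and by group alone the adjusted p was 0.832.

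Reads over both GATA genes could in part come from antisense neighbours, since the strand setting of the counting is not given in the sources used here. GATA2-AS1 overlaps GATA2 over 5072 bases and had 14 to 34 reads a library, 8.22% of the GATA2 total. It was not called in any comparison in either fit, with -0.55 for UNC against DMSO with the block (adjusted p = 0.459 by edgeR). GATA3-AS1 had 0 to 12 reads a library and an unnamed entry inside GATA3, ENSG00000232638, 0 to 2, and neither was deep enough to test.

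TFAP2A (ENSG00000137203, chromosome 6, 10393186 to 10419659, minus strand) encodes AP-2 alpha. DMSO 1, 2 and 3 had 0.455, 1.19 and 0.778 CPM, PROTAC 0.381, 1.23 and 0.757 CPM, and UNC 0.241, 0.229 and 0.305 CPM. The UNC libraries lay below all others, and DMSO and PROTAC followed the same order over the numbers 1, 3 and 2. UNC was 2.72-fold below DMSO with the block (log2 fold change -1.44, SE 0.318, adjusted p = 0.00146 by edgeR), and by group alone the value was -1.64 (SE 0.462, adjusted p = 0.136). The pairs differed, with -0.92, -2.37 and -1.35, and the blocked call was lost without UNC 2, which held 9 reads (-1.08, adjusted p = 0.0576), or without all libraries numbered 2 (-1.13, adjusted p = 0.132, both by edgeR). PROTAC against DMSO gave -0.07 with the block (95% interval -0.64 to 0.51). PROTAC was 2.60-fold above UNC (adjusted p = 0.00773 by edgeR with the block). That call was lost without PROTAC 2 (adjusted p = 0.185), UNC 2 (0.185), UNC 3 (0.0613), or all libraries numbered 2 (0.436) or 3 (0.0602), in the same blocked edgeR fit.

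An antisense entry inside TFAP2A, TFAP2A-AS2 (chromosome 6, 10404456 to 10407928, plus strand), held 440 reads over the 9 libraries, 119% of the 369 of TFAP2A itself. The pair shares 941 exonic bases in GENCODE 29, and with the strand setting unknown, reads counted for TFAP2A, at 9 to 100 a library, may in part come from the antisense RNA. The values of TFAP2A above carry that doubt. TFAP2A-AS2 had 1.09, 0.939 and 0.990 CPM in DMSO 1 to 3, 0.444, 0.630 and 0.60 CPM in PROTAC, and 0.712, 0.663 and 0.521 CPM in UNC. Its DMSO libraries were above all treated libraries, a different pattern from TFAP2A, whose PROTAC and DMSO libraries overlapped. Neither comparison was called: with the block UNC gave -0.66 (adjusted p = 0.0827) and PROTAC -0.88 (adjusted p = 0.0581), both by edgeR. TFAP2A-AS1 had 0 to 8 reads a library and ENSG00000296848, also inside TFAP2A, 0 to 1.

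TFAP2B (ENSG00000008196, chromosome 6, 50818723 to 50847619, plus strand) encodes AP-2 beta. It had 0.470, 0.511 and 0.566 CPM in DMSO, 0.264, 0.266 and 0.347 CPM in PROTAC, and 0.212, 0.306 and 0.407 CPM in UNC. Every treated library was below every DMSO library, on 11 to 43 reads each. Neither difference passed the test: with the block UNC gave -0.79 (95% interval -1.53 to -0.05, adjusted p = 0.161) and PROTAC -0.82 (-1.57 to -0.07, adjusted p = 0.254) by edgeR. Together with GATA3 and TFAP2A, TFAP2B made 3 of 8 genes whose UNC libraries were all below DMSO, where 9.07% of all tested genes were, and 0 of 8 were all above it, where 8.34% were. For PROTAC 1 of 8 was below DMSO, where 5.44% were, and 0 of 8 above, where 6.07% were. In PROTAC against UNC, 2 of 8 genes (GATA3, TFAP2A) were apart and higher in PROTAC, where 5.16% were, and 0 of 8 were apart and lower, where 3.93% were. An antisense entry at its start, ENSG00000297125, had 0 to 1 reads a library.

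TFAP2C (ENSG00000087510, chromosome 20, 56629306 to 56639283, plus strand) encodes AP-2 gamma, shared by trophoblast and naive pluripotent cells. Its levels were 112, 107 and 117 CPM in DMSO, 133, 106 and 124 CPM in PROTAC, and 113, 107 and 120 CPM in UNC, so the groups overlapped. In UNC against DMSO the log2 fold change was 0.01 with the block (95% interval -0.10 to 0.12, adjusted p = 0.925 by edgeR), and its sign turned under upper-quartile and library-size scaling. That interval lies clear of the -1.44 found for TFAP2A. PROTAC against DMSO gave 0.10 (-0.01 to 0.21, adjusted p = 0.347 by edgeR). The antisense entry ENSG00000295546 had at most 13 reads a library, beside 3918 to 12586 for TFAP2C.

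**Figure D3:**
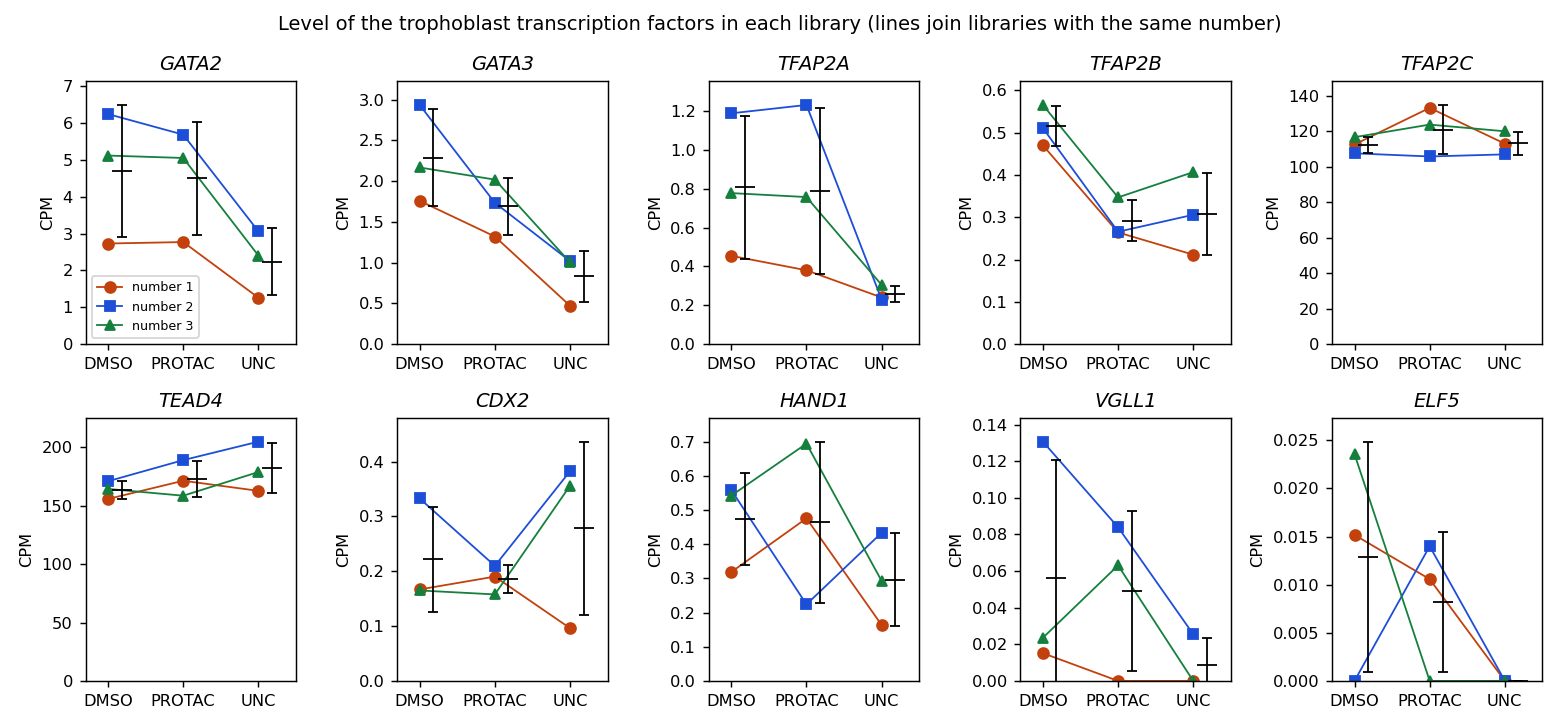
CPM of the 10 genes in each library by group, on linear axes that start at 0. Coloured lines join libraries with the same replicate number, and black bars give the group mean and SD (n = 3). For GATA2, library 1 is the lowest in each group and each line falls from DMSO to UNC. TFAP2C and TEAD4 stay nearly level.

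TEAD4 (ENSG00000197905, chromosome 12, 2959330 to 3040676, plus strand) is the DNA-binding partner of YAP1 and WWTR1. It stood at 156, 171 and 164 CPM in DMSO, 171, 189 and 159 CPM in PROTAC, and 163, 205 and 179 CPM in UNC. UNC was above DMSO in 3 of 3 pairs, by 0.06, 0.26 and 0.12 on the log2 scale, and the groups overlapped. The test gave 0.15 in both fits, with adjusted p = 0.550 by group and 0.0576 with the block by edgeR. The blocked difference was called in DESeq2 (adjusted p = 0.0463), without the expression filter (0.0432, edgeR), without UNC 1 (0.0321, edgeR) and without all libraries numbered 1 (0.0143, edgeR). PROTAC against DMSO gave 0.08 (95% interval -0.03 to 0.19 with the block). The overlapping entry ENSG00000308641 had 22 to 73 reads a library and was not called in any comparison.

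VGLL1 (ENSG00000102243, chromosome X, 136532215 to 136556807, plus strand), the TEAD cofactor of cytotrophoblast, had 1, 11 and 1 reads in DMSO 1 to 3, 0, 6 and 2 in PROTAC, and 0, 1 and 0 in UNC. The libraries numbered 2 held 11 of the 13 reads in DMSO, 6 of the 8 in PROTAC and the only read in UNC. A count of 0 allows up to 3 reads, which is 0.0289 to 0.0947 CPM depending on the library, for counting error only. DMSO 2 and PROTAC 2 were the libraries above that limit, and no test was made. No other entry overlaps VGLL1.

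CDX2, ELF5 and HAND1 were at trace levels in all groups. CDX2 (ENSG00000165556, chromosome 13, 27960918 to 27969315, minus strand) had 0.167, 0.333 and 0.165 CPM in DMSO, 0.190, 0.210 and 0.158 CPM in PROTAC, and 0.0962, 0.382 and 0.356 CPM in UNC, which overlapped. UNC against DMSO was 0.21 with a blocked 95% interval from -0.78 to 1.20 on 5 to 28 reads a library, so at this depth the interval spans both a fall and a rise. HAND1 (ENSG00000113196, chromosome 5, 154474972 to 154478227, minus strand) had 0.318, 0.559 and 0.542 CPM in DMSO, 0.476, 0.224 and 0.694 CPM in PROTAC, and 0.164, 0.433 and 0.292 CPM in UNC. UNC was below DMSO in 3 of 3 pairs for HAND1, with a blocked value of -0.79 (95% interval -1.61 to 0.04, adjusted p = 0.222 by edgeR), and the groups overlapped. ELF5 (ENSG00000135374, chromosome 11, 34478791 to 34525193, minus strand) had 1, 0 and 1 reads in DMSO, 1, 1 and 0 in PROTAC, and 0 in all 3 UNC libraries. With at most 1 read a library, no difference in ELF5 was detectable at this depth. Overlapping entries of CDX2 (ENSG00000310321), ELF5 (ENSG00000301952) and HAND1 (ENSG00000306071) had 0 reads in all libraries.

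Libraries with different replicate numbers also differed in several of these genes. In the fit of group and number, edgeR's F test of the replicate number called 5 of the 8 tested genes (GATA2, GATA3, TFAP2A, TEAD4 and TFAP2C), where 31.5% of all genes were called. GATA2 averaged 2.25 CPM over the 3 libraries numbered 1, against 4.99 and 4.19 CPM for numbers 2 and 3 (adjusted p = 3.72e-08 by edgeR). GATA3 averaged 1.18, 1.90 and 1.73 CPM, and TFAP2A 0.359, 0.883 and 0.613 CPM, again lowest in number 1. For GATA2 number 2 stood 1.16 above number 1 on the log2 scale, beside the blocked -1.08 between UNC and DMSO. The count was 3 of 8 without the PROTAC libraries (GATA2, GATA3, TEAD4) and 2 of 8 without the UNC libraries (GATA2, TFAP2A). The share over all genes is not given for these smaller sets, so their counts are not read against the 31.5%.

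Across the 9 libraries, the highest correlations among the 8 tested genes were those between GATA2, GATA3 and TFAP2A. On log2 CPM, Pearson's r was 0.92 for GATA2 with GATA3, 0.88 for GATA2 with TFAP2A and 0.84 for GATA3 with TFAP2A. These points share treatment group and replicate number, so r describes them only. After the group means were taken out, r was 0.91, 0.75 and 0.55. TFAP2C did not go with its relative TFAP2A (-0.23, and -0.64 within groups), while TEAD4 went with CDX2 (0.70, and 0.76 within groups). GATA3 also went with TFAP2B (0.71, and 0.78 within groups) and HAND1 (0.70, and 0.63). Within groups several other pairs exceeded GATA3 with TFAP2A, among them GATA3 with CDX2 (0.85), GATA2 with CDX2 (0.71) and GATA2 with TEAD4 (0.68). GATA2, GATA3 and TFAP2A were thus not a block of their own after the group means were taken out.

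**Figure D4:**
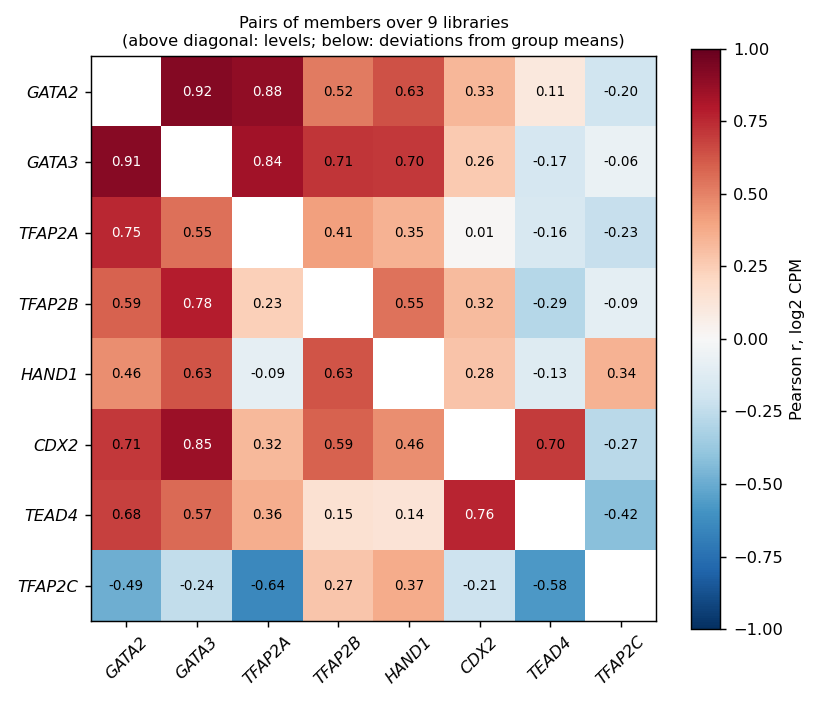
Pearson's r between the 8 tested genes over 9 libraries on log2 CPM, above the diagonal for levels and below it for deviations from group means. GATA2, GATA3 and TFAP2A form the red block at the upper left, from 0.84 to 0.92 above the diagonal. Below the diagonal they do not stand apart, with GATA3 and CDX2 at 0.85.

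Among 14535 named genes with a mean of at least 1 CPM, those most like GATA2 over the 9 libraries were MAGIX (r = 0.979), FOXI3 (0.962) and CGB7 (0.962), a chorionic gonadotropin beta gene. Most like GATA3 were BTG2 (0.971), CDC25B (0.965) and PAXX (0.964). TFAP2C was most like MRPS16 (0.958), ZWILCH (0.948) and AREL1 (0.940), and TEAD4 most like AP3M1 (0.973), THAP1 (0.970) and YTHDF2 (0.968). The 9 points share group and replicate number, and the genes named are the top of a search, so r is a description. Gonadotropin genes are near-identical copies, so reads of CGB7 may be split among them.

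Of 28 other trophoblast transcription factors, 25 were tested. In UNC against DMSO edgeR called 0 by group alone (7 at an unadjusted p under 0.05, 5 of them lower). With the block it called 6 lower and 2 higher, where 6.46% and 7.04% of all genes were, so the 2 higher are near that share. The median log2 fold change with the block was -0.17, beside -0.01 over all genes. GCM1, the switch to syncytiotrophoblast, was lower (-0.90, SE 0.266, adjusted p = 0.0192), as were TBX3 (-0.62), the BMP target MSX2 (-0.52) and the epithelial factor GRHL2 (-0.49), by edgeR with the block. The 2 higher ones were KLF5 (0.40) and CEBPB (0.26), both named after their values were seen. In PROTAC against DMSO the block called 1 lower, TBX3 (-0.60, adjusted p = 0.0107), and 1 higher, CEBPB (0.24, adjusted p = 0.0221), and by group edgeR called 0 (5 at an unadjusted p under 0.05). Over all genes the block called 0.984% lower and 2.01% higher in that comparison.

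Of 39 trophoblast keratins, surface proteins and secreted products, 32 were tested. UNC against DMSO gave 3 lower and 0 higher by group alone in edgeR (4 higher at an unadjusted p under 0.05): the placental lactogens CSH2 (-1.63, adjusted p = 0.0451) and CSH1 (-1.23, adjusted p = 0.0159) and the transporter ABCG2 (-0.55, adjusted p = 0.0159). Over all genes 0.401% were called lower and 0.318% higher by group alone. With the block 18 of the 32 were lower and 5 higher, with a median of -0.46, where 6.46% and 7.04% of all genes were. The largest falls there were in CYP19A1, the aromatase (-2.45), ERVFRD-1, the envelope gene of syncytin-2 (-1.89), CGB3, a gonadotropin beta gene (-1.81), and CSH2 (-1.68). CYP19A1 rests on 90 reads in all 9 libraries, with 0 in 1 of them. CSH1 with CSH2, and the CGB genes, are near-identical copies whose reads can be split by the counting. Higher genes included DAB2 (0.52), S100P (0.40), MFSD2A (0.33) and PEG10 (0.29), named after their values were seen. DAB2 is an endocytic adaptor, and PEG10 a placental gene derived from a retrotransposon.

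With UNC6852 and vehicle, the products gave 0 by group alone in edgeR (3 at an unadjusted p under 0.05), and with the block 3 lower, ERVFRD-1 (-1.05, adjusted p = 0.0287), ERVW-1, the envelope gene of syncytin-1 (-0.63), and ABCG2 (-0.25), and 1 higher, PEG10 (0.47). Over all genes the block called 0.984% lower and 2.01% higher there. PROTAC against UNC, the test of the difference between compounds, called 0 by group alone (9 at an unadjusted p under 0.05). With the block it called 8 higher and 2 lower, where 2.17% and 0.74% of all genes were. CSH2 (1.37, adjusted p = 0.000116), CSH1 (1.05), ENPEP, an aminopeptidase of trophoblast (0.90), and ERVV-1, a further envelope gene (0.52), were the largest. The 2 lower ones were MFSD2A (-0.42) and DAB2 (-0.40), named after their values were seen. Among the other trophoblast factors, PROTAC against UNC gave 3 higher, EPAS1 (0.51), SP6 (0.32) and OVOL1 (0.32), and 1 lower, KLF5 (-0.22), with the block, and 0 by group alone (4 at an unadjusted p under 0.05). The shares over all genes were again 2.17% higher and 0.74% lower.

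Around TEAD4, 20 of 22 Hippo pathway and TEAD cofactor genes were tested. In UNC against DMSO AMOTL2, an angiomotin that holds back YAP1 and is itself a YAP1 target, fell from 114 to 73.8 CPM on average (-0.62 by group, SE 0.0839, adjusted p = 0.00659 by edgeR). It was the 1 gene of this list called by group alone, where 0.401% of all genes were lower. With the block CCN1, a classical target of YAP1 and TEAD, was lower as well (-0.54), and 3 genes were higher: the kinase STK3 (0.29), its scaffold SAV1 (0.26), and WWTR1, the YAP1 relative TAZ (0.23), the last named after its values were seen. Over all genes the block called 6.46% lower and 7.04% higher, so the 2 lower of 20 are near that share. The list median was 0.03. In PROTAC against DMSO, AMOTL2 was lower (-0.30) and SAV1 higher (0.21) with the block, where 0.984% and 2.01% of all genes were. By group 0 were called in edgeR (2 at an unadjusted p under 0.05). PROTAC was above UNC for CCN1 (0.56) and AMOTL2 (0.33) with the block, where 2.17% of all genes were higher. By group alone 0 were called (2 at an unadjusted p under 0.05). TEAD4 itself was not called by edgeR in either fit of the 9 libraries in any of the 3 comparisons, and was called higher in UNC than in DMSO by DESeq2 with the block (adjusted p = 0.0463).

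Of 22 relatives of the 10 genes (other GATA, FOG, AP-2, CDX, ELF, HAND, TEAD and VGLL genes), 16 were tested, and 1 was called: TFAP2E, AP-2 epsilon, lower in UNC with the block (-0.55, adjusted p = 0.0219 by edgeR). That is a share near the 6.46% of all genes called lower there. In PROTAC against DMSO 0 relatives were called in either fit, with 0 by group and 1 with the block at an unadjusted p under 0.05. Of 9 BMP response genes, the block called 2 lower, ID3 (-0.51) and MSX2 (-0.52), and 1 higher, ID4 (0.45), in UNC against DMSO, where 6.46% of all genes were lower and 7.04% higher. By group edgeR called 0 of the 9 (3 at an unadjusted p under 0.05). The block called 0 in PROTAC against DMSO (0 also at an unadjusted p under 0.05). ID3 was 0.52 higher in PROTAC than in UNC with the block, where 2.17% of all genes were higher.

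**Figure D5:**
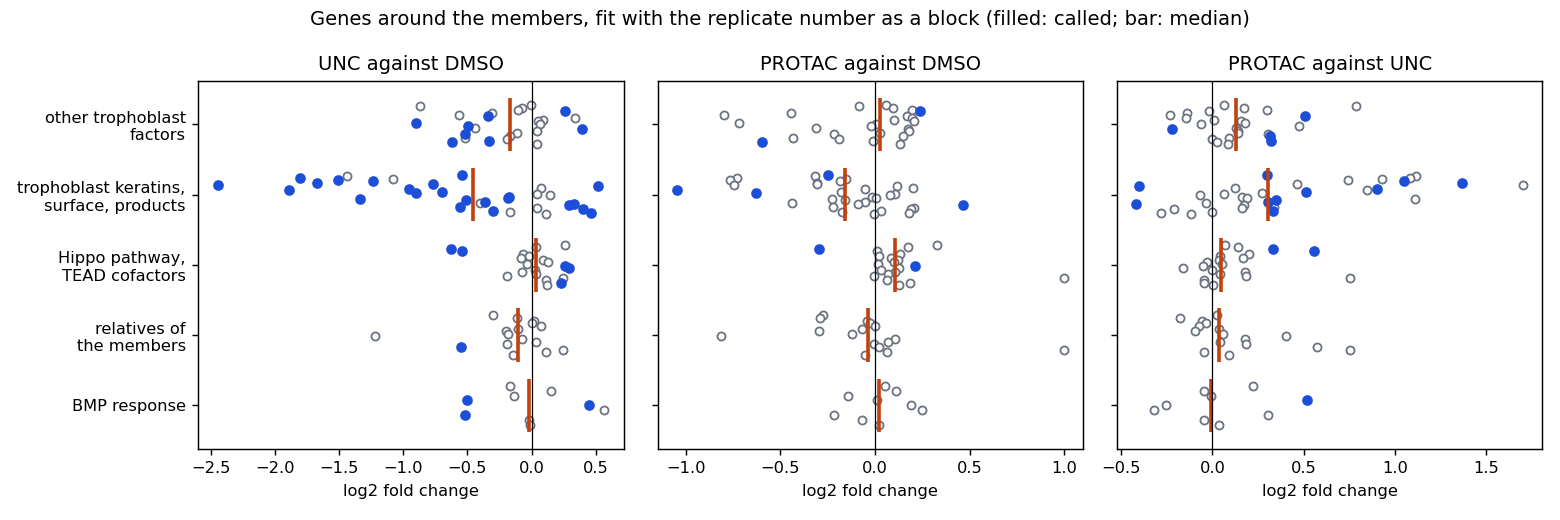
Log2 fold changes of the tested genes in 5 lists around the 10 regulators, in 3 comparisons, from the fit with the replicate number as a block. Filled points were called at a false discovery rate of 0.05, and vertical bars mark list medians. The products list has its median at -0.46 in UNC against DMSO, and at -0.16 in PROTAC against DMSO.

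Marker lists of several cell types had genes called in UNC against DMSO. Over all genes, 6.46% were called lower and 7.04% higher there with the block, and 0.401% and 0.318% by group. The lists are short, so 1 call in a list is not read as a change in that cell type. The 12 trophoblast markers, some of which are in the products list, summed to 22.9, 51.8 and 46.9 CPM in DMSO 1 to 3, 20.2, 48.2 and 40.4 CPM in PROTAC, and 17.2, 33.7 and 25.3 CPM in UNC. Library 1 was the lowest in every group, as for GATA2. UNC was below DMSO in each pair, and the groups overlapped. Of the 9 markers tested, the block called 7 lower and 1 higher in UNC against DMSO, and by group edgeR called 0 (6 at an unadjusted p under 0.05). The 8 amnion markers summed to 27.997 to 31.3 CPM in DMSO, 28.2 to 33.9 in PROTAC and 24.5 to 27.8 in UNC, with VTCN1 and POSTN under 0.1 CPM in each group, and in UNC 2 of 6 were called lower and 1 higher with the block and 1 lower by group. The amnion sums of UNC lay below those of DMSO and PROTAC without overlap, by a small gap (27.8 CPM in UNC 2, 27.997 in DMSO 3). BAMBI was their largest part (on average 17.7 CPM in DMSO, 15.8 in UNC). Of the 6 tested, 4 had negative log2 fold changes. ISL1 (2.09 CPM in DMSO, 2.63 in UNC) and GADD45G (2.65 and 4.43) averaged higher in UNC, both named after their values were seen. The 7 primitive streak and mesoderm markers summed to 14.3 to 16.7, 11.1 to 14.5 and 8.87 to 9.77 CPM. MESP1 and MSGN1 averaged under 0.1 CPM over the 9 libraries, though MESP1 averaged 0.108 CPM in PROTAC and 0.120 CPM in UNC. In UNC 3 of 5 streak markers were called lower with the block and 1 by group. The streak sums of UNC also lay below those of both other groups. The 6 extraembryonic mesoderm markers summed to 5.17 to 6.67, 5.68 to 7.16 and 6.73 to 7.13 CPM, with COL3A1, LUM, DCN and HGF under 0.1 CPM. The 7 endoderm markers, with SOX17 and FOXA2 under 0.1 CPM, summed to 8.01 to 13.97, 9.47 to 12.5 and 10.9 to 15.98 CPM. The 8 surface ectoderm and neural crest markers, with KRT5, KRT14, TP63, PAX3 and SNAI2 under 0.1 CPM, summed to 25.1 to 28.4, 27.2 to 28.8 and 24.0 to 26.9 CPM. The 9 naive markers summed to 1381 to 1542 CPM in DMSO, 1445 to 1523 in PROTAC and 1284 to 1495 in UNC, and the 9 primed and formative markers to 748 to 840, 747 to 928 and 722 to 859. In UNC against DMSO the block also called 1 of 2 extraembryonic mesoderm markers higher, 1 of 5 endoderm markers higher and 1 lower, and 0 of 3 surface ectoderm and neural crest markers (0 at an unadjusted p under 0.05). It called 3 of 6 core pluripotency markers higher, 2 of 9 naive markers higher and 1 lower, and 1 of 9 primed and formative markers higher and 3 lower. By group edgeR called 1 endoderm marker and 1 naive marker higher and 1 primed and formative marker lower. The part of any of these cell types in the values of GATA2, GATA3 and TFAP2A was not tested.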

How the data were processed

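RNA libraries of 9 cultures were prepared after ribosomal RNA depletion, per the labels' protocols, while the molecule label reads polyA RNA, so transcript selection is uncertain. Per the submitters' processing notes, Trim Galore 0.6.10, HISAT2 2.2.1 and GRCh38 were used. How reads were assigned to genes (tool, annotation, strand) is not given in the sources used here. Values are raw counts in 1 table deposited by the authors with 56312 entries, of which 5 lack an identifier (0.00651% to 0.0103% of counts) but carry a name and were kept. Groups and replicate numbers came from sample titles.

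Counts were fitted in R 4.3.3 with edgeR 4.0.16: TMM factors, the default expression filter by group (24187 genes, 8 of the 10 here), a robust quasi-likelihood fit of all 9 libraries by group, and two-sided tests adjusted by Benjamini-Hochberg over the whole table, with calls at a false discovery rate of 0.05. CPM use the TMM-scaled library size. The script was tested on simulated data. The fit with the replicate number as a block was a second fit, with the numbers taken from the titles. Numbers were treated as pairs because the 9 correlations of deviations between same-numbered libraries, 0.106 to 0.472, passed a threshold of 0.1 in these same data. The 18 between other libraries were -0.324 to 0.0753. Deviations cancel within each group, so those 18 are not separate support. No label says that a number is 1 shared experiment. Biological coefficients of variation (common) were 13.2% by group and 6.09% with the block. No replicates were copies (chi-square over degrees of freedom 11.4 to 37.9). DESeq2 1.42.0, limma-voom (limma 3.58.1), other scalings and filters, a stricter threshold and left-out libraries were alternatives. Fits with the block that left out a replicate number, used no filter or used a false discovery rate of 0.01 were added after the data were seen.

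All 10 genes are named. From each list around the 10 genes up to 4 called genes are named per comparison, fit and direction, those with the largest change. The plan was up to 4 per comparison, so some were named after their values were seen. Every entry that overlaps 1 of the 10 is named, as are the 3 genes most like each gene of at least 1 CPM. The 10 genes and the lists were chosen with earlier results of these data known. One member of a list is not reported here by name. Exon lengths came from GENCODE 29, matched by identifier, and promoter windows from RefSeq (GRCh38.p14). The window shown is the nearest to the longest principal transcript.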

Additional observations from a re-analysis of the deposited data

How the results depend on the processing

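The replicate block, and the fit by group without a filter, moved the counts of calls among the 8 tested genes furthest. In UNC against DMSO the number of the 8 tested genes called lower was 1 by group alone. It was 3 with the replicate block, alone or with library-size scaling, DESeq2, no filter or a false discovery rate of 0.01, and 3 without a filter by group. It was 2 in DESeq2 by group, and 0 with only the 6 libraries compared (GATA3 adjusted p = 0.0856 by edgeR) or at a false discovery rate of 0.01. Over all genes, DESeq2 by group called 397 of 24187 lower, and the fit by group without a filter 478 of 39372. Leaving out 1 library gave 0 to 0 by group and 2 to 3 with the block, and leaving out a replicate number 0 to 2 and 2 to 3. Of the 2 called by group without number 1, GATA2 had an adjusted p of 0.0219 and GATA3 0.0271 by edgeR. The number called higher was 0, and 1 (TEAD4) in the replicate block with DESeq2 or no filter. It was 0 to 1 with a library or number left out in the block. In PROTAC against UNC the number called higher was 0 by group alone, 3 without a filter, and 3 with the replicate block, alone or with library-size scaling, DESeq2, no filter or a false discovery rate of 0.01. The fit by group without a filter called 208 of all 39372 genes higher there. With 1 library or number left out, the number of the 8 tested genes called higher was 0 by group and 2 to 3 in the block. In PROTAC against DMSO 0 were called under each of the 32 alternatives. The F test of the replicate number called 5, and 3 without PROTAC or 2 without UNC libraries, with no share over all genes for these smaller sets. The cause of these differences was not tested.

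Over all genes, UNC against DMSO gave 77 higher and 97 lower by group and 1703 and 1562 with the block, with 0 to 1840 and 0 to 1917 over the alternatives. Library-size scaling gave 41 higher by group alone, and 1165 higher with 1917 lower in the block. For PROTAC and vehicle the counts were 0 and 0 by group, and at most 632 and 338. PROTAC against UNC gave 2 and 0 by group, and at most 601 and 237.

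Signs turned where values were near 0 or counts low. TFAP2C in UNC against DMSO was -0.00683 with upper-quartile scaling, -0.0159 with library size alone and -0.0194 with library size in the replicate block, and -0.0279 to 0.0546 with a library or number left out. CDX2 was -0.135 in UNC against DMSO with limma-voom and -0.24 to 0.69 with libraries or numbers left out. With libraries or numbers left out, PROTAC against DMSO ran from -0.66 to 0.19 for CDX2, -0.35 to 0.20 for GATA2, -0.49 to 0.57 for HAND1 and -0.60 to 0.37 for TFAP2A. PROTAC against UNC ran from -1.05 to 0.0487 for CDX2, -0.15 to 0.0199 for TEAD4 and -0.35 to 0.19 for TFAP2B. GATA2, GATA3 and TFAP2A kept their direction in UNC against DMSO and in PROTAC against UNC under all alternatives run. Depth limits CDX2, TFAP2B, HAND1 and TFAP2A, at 5 to 100 reads a library, and leaves VGLL1 and ELF5 untested.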
